A study of Mus musculus with 6 samples.

Results

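The genes described here are 35 mouse genes of glycolysis and of the transcriptional response to low oxygen, examined across 3 lines of B16-F1 melanoma cells. They were taken by name from a list, and each was represented by its brightest probe set among those that the array annotation gives to 1 gene symbol only. Such a probe set existed for 32 of the 35, out of 18193 genes on the array, and all 32 passed the filter on dim probe sets that left 12088 genes for testing. The 3 others are not analysed here: Gpi1 and Eno1 had no probe set under 1 symbol in the annotation used, and the probe sets of Bnip3l carried a further symbol. Ero1l is named Ero1a below, as the array annotation has it.

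B16-F1 is a melanoma line of the C57BL/6J mouse, and the 3 lines differed in a stably integrated lentiviral short hairpin RNA (shRNA), which targeted macroH2A1 in one line, macroH2A2 in another and GFP in the control. MacroH2A1 and macroH2A2 are variants of histone H2A with a macro domain at their C terminus. Each line was represented by 2 arrays, given as independent biological replicates, so 6 one-colour arrays in all, and the precision is limited by this small number. Which hairpin sequence each line carried, whether a line was 1 clone or a pool, and the oxygen level and density of the cultures are not given in the sources used here.

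Glycolysis splits glucose into pyruvate in the cytosol, and fast growing tumour cells commonly pass much of that pyruvate on to lactate. When oxygen is low, the prolyl hydroxylases that mark the alpha subunit of hypoxia-inducible factor (HIF) for destruction slow down, and HIF then activates genes for glucose uptake, glycolytic enzymes, blood vessel growth and mitochondrial turnover. Many of these genes therefore move together when oxygen, nutrients or cell density change, and several of them, such as Egln3, Kdm3a and Ankrd37, are used as readouts of HIF activity.

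HIF binds a core of A or G followed by CGTG, so both spellings of that core were searched in the promoters of the genes, on both strands. The promoters are from RefSeq on the build GRCm38.p6 and run from 250 bases before to 50 bases after the first listed start of each gene. Of the 32 genes 30 had a promoter in the table, and Slc2a3 and Ndrg1 did not. The spelling ACGTG stood in 18 of the 30 promoters, 60%, against 19.7% of all 27025 promoters in the table. The spelling GCGTG stood in 17, or 56.7%, against 32.5% of all, and either spelling in 24, or 80%, against 43.8%. The palindrome CACGTG, which contains ACGTG on both strands and is also the core of the E-box, stood in 4 promoters, 13.3%, against 7.24% of all. The 30 genes all passed the filter on dim probe sets, while the promoters of the whole table were not filtered by signal, so the groups compared are not alike. A match describes the letters of the window and does not show that a factor binds there.

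The 4 promoters with the widest spread of the gene over the 6 arrays are shown, because the arrays differed most for these genes, with the cores of both strands in capitals. Ankrd37 lies at chr8:45999801-46000100 on the minus strand and holds 2 ACGTG and 2 GCGTG cores, where the 2 GCGTG cores overlap on opposite strands in 1 CACGCGTG. Bnip3 lies at chr7:138909457-138909756 on the minus strand and holds 2 and 3, where the 2 ACGTG cores are the 2 strands of 1 CACGTG palindrome. Pdk1, at chr2:71872974-71873273 on the plus strand, holds 0 and 2. Vegfa, at chr17:46032328-46032627 on the minus strand, holds neither in this window. For Pdk1 and Vegfa the table lists 2 starts each, and the window is that of the first.
Ankrd37: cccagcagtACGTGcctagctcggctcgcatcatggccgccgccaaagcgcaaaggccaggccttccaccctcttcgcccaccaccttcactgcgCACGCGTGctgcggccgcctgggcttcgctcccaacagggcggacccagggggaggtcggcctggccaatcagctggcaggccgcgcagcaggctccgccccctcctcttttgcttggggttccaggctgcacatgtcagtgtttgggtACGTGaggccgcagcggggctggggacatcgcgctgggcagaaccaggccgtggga
Bnip3: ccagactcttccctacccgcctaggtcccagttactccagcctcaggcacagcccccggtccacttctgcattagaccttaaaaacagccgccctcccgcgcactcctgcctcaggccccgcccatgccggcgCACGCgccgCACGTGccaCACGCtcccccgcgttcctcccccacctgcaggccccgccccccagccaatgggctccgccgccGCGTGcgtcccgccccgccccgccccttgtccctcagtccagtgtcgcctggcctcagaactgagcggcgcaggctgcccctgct
Pdk1: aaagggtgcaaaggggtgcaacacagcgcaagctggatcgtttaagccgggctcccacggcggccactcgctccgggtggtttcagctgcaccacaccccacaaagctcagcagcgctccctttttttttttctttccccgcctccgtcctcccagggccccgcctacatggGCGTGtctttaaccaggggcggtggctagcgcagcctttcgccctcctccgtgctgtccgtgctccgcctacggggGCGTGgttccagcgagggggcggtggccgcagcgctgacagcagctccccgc
Vegfa: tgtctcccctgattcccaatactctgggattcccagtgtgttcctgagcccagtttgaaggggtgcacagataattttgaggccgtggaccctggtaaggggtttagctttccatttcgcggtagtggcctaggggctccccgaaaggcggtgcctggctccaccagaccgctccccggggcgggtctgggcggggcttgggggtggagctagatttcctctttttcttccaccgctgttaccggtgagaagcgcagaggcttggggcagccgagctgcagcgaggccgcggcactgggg

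Signals are the deposited linear intensities, and differences between lines are given as log2(signal + 16), a scale that understates the change of dim probe sets. Values of a line are given in the order replicate 1 and replicate 2. All 6 arrays had been scaled to a 2% trimmed mean of 150. Their median signals ran from 15.1 to 24.6, with the highest on control replicate 1. Pairs of arrays correlated with r from 0.978 to 0.990. The 5′ to 3′ signal ratio lay between 0.781 and 0.809 for Actb and between 1.19 and 1.24 for Gapdh. Defining markers of the pigment cell lineage were bright, with 7 of 7 above the filter and signals from 1288 to 9998, while no marker of leukocytes, fibroblasts, keratinocytes or endothelial cells exceeded 82.9. Macroh2a1 read 1213 and 1262 on the control arrays, 444 and 319 on the macroH2A1 shRNA arrays and 1271 and 1171 on the macroH2A2 shRNA arrays, a log2 difference of -1.67 (SE 0.17) between the macroH2A1 shRNA line and control. The limma adjusted p was 0.123 without and 0.00120 with the replicate number as a block, and the 2 knockdown arrays lay below the 4 others. Macroh2a2 lay between 2.0 and 11.9 on all arrays, below the filter, so the array does not check the macroH2A2 shRNA label. With cells measured in bulk, fewer cells that express a gene and less RNA of it per cell cannot be told apart.

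The order of the lines differed between the replicate numbers for these genes, so the genes were compared first within each number. Replicate set 1 holds the replicate 1 array of each line, and replicate set 2 the replicate 2 array. In set 1 the signal of 28 of the 32 genes was highest in control, intermediate in the macroH2A1 shRNA line and lowest in the macroH2A2 shRNA line. That order held for 26.6% of the 27025 tested probe sets. In set 2 it held for 4 of the 32, against 14.9% of all tested probe sets, and the other 5 possible orders were taken by 4 to 7 genes each. With each array centred on its median, a scaling chosen after seeing the data, the order held for 22 genes in set 1 (16.5% of all tested probe sets) and 5 in set 2 (15.4%). The 4 genes in that order in both sets without the centring were Slc2a1, Hk1, Pdk1 and Ankrd37. In set 1 control was the highest line for 30 genes (44.1% of all tested probe sets) and the lowest for 0 (27.2%), and in set 2 it was the highest for 10 (32.1%) and the lowest for 11 (34.1%). The exceptions in set 1 were Pfkfb3 and Slc16a3, lowest in the macroH2A1 shRNA line, Ndrg1, highest there, and Hif1a, highest in the macroH2A2 shRNA line. Ndrg1 and Hif1a were exceptions on their brightest probe set only. Their further tested probe sets all had the order of control, macroH2A1 shRNA and macroH2A2 shRNA in set 1. The further probe set of Pfkfb3 did not have that order.

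The medians over the 32 genes give the same picture in log2 units. In set 1 the macroH2A1 shRNA line differed from control by a median of -0.43, and the macroH2A2 shRNA line by -0.70, where the medians over all tested probe sets were -0.05 and -0.08. In set 2 the medians of the genes were 0.0086 and 0.04, and those over all tested probe sets 0.0027 and 0.01. In set 1 31 of the 32 genes were lower in the macroH2A1 shRNA line (57.6% of all tested probe sets) and 31 in the macroH2A2 shRNA line (59.2%). In set 2 these counts were 16 (49.5%) and 15 (48.2%). The macroH2A2 shRNA line lay below the macroH2A1 shRNA line for 29 genes in set 1 (53.2%) and 16 in set 2 (49%). Both comparisons use the same control arrays, so they are not independent of each other.

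**Figure D1:**
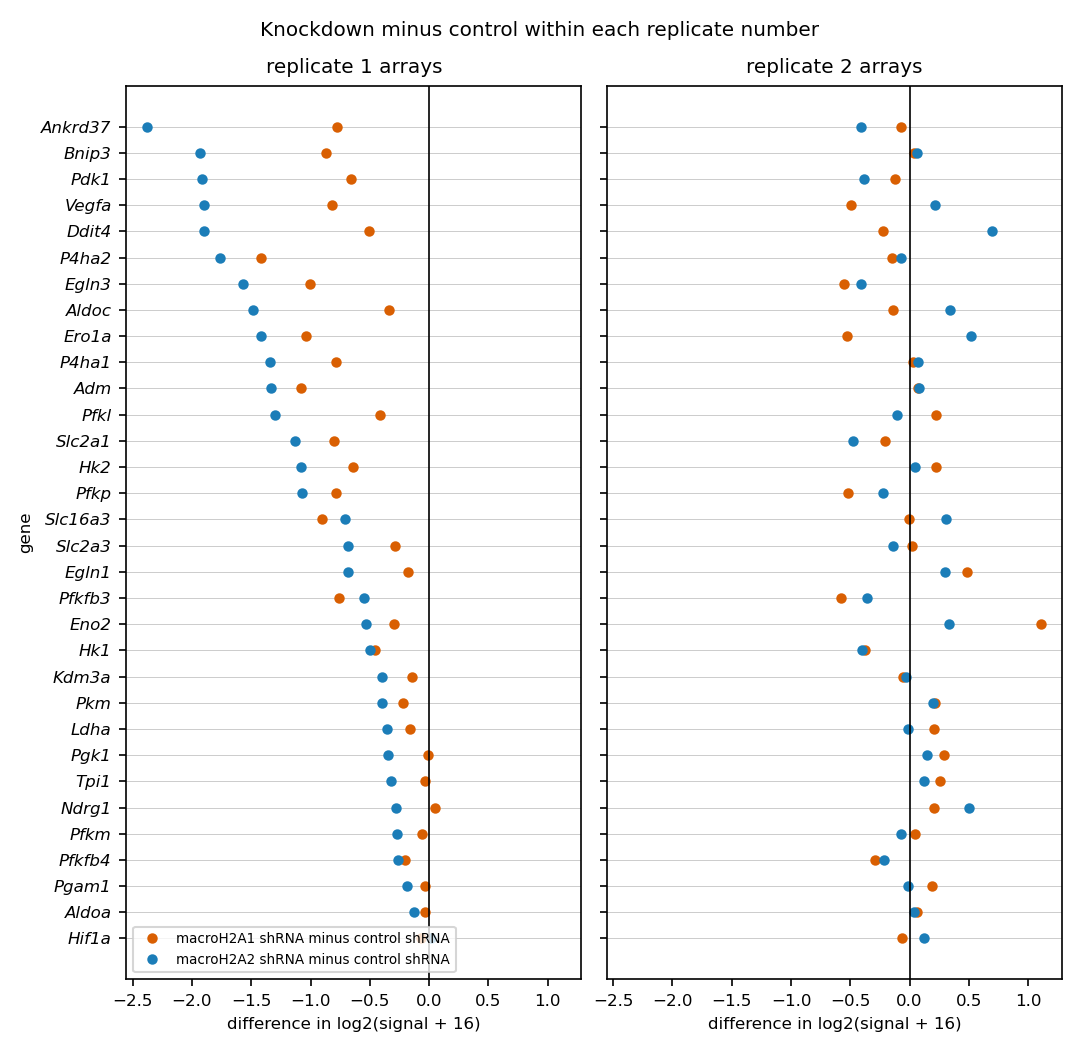
Log2 difference of each of the 32 genes between a knockdown line and control, with 1 panel for each replicate set. The macroH2A1 shRNA and macroH2A2 shRNA lines are drawn as separate points. In the set 1 panel 31 of the 32 genes lie below 0 for each knockdown line. In the set 2 panel 16 do for macroH2A1 shRNA and 15 for macroH2A2 shRNA.

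For these genes 2 arrays stood apart from the others. Control replicate 1 was the highest of the 6 arrays for 26 of the 32 genes (32.1% of all tested probe sets), and macroH2A2 shRNA replicate 1 was the lowest for 21 (15.7%). Within the control line replicate 1 exceeded replicate 2 for 31 of the 32 genes (62.7% of all tested probe sets), by a median log2 difference of 0.51 against 0.11 over all, and from -0.05 for Hif1a to 1.52 for Ankrd37. With each array centred on its median these values were 28 genes (44.1%) and a median of 0.33 against -0.06. Within the macroH2A1 shRNA line it did so for 18 genes (56.2%), with a median of 0.04 against 0.05. In the macroH2A2 shRNA line it did so for 5 (53.7%), with a median of -0.27 against 0.03, and the values ran from -1.23 for Ddit4 to 0.19 for Pfkfb4. After centring each gene on its own mean, the median of the 32 genes was 0.48 on control replicate 1, -0.35 on macroH2A2 shRNA replicate 1 and between -0.06 and 0.02 on the 4 others.

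Across the 32 genes, the replicate differences of the control and macroH2A1 shRNA lines correlated with r = 0.597, and those of the control and macroH2A2 shRNA lines with r = -0.529. Those of the macroH2A1 shRNA and macroH2A2 shRNA lines correlated with r = -0.287. Over all tested probe sets the same correlations were 0.576, 0.372 and 0.415. These are descriptions over genes that share 6 arrays. Other measures also differed between the replicates. The poly-A spike-ins, which are added to the RNA and do not come from the cells, were higher on replicate 1 by a median log2 difference of 0.53 for control, 0.42 for macroH2A1 shRNA and 0.17 for macroH2A2 shRNA. The 18S rRNA probe sets were higher by 0.59, 0.52 and 0.54 in that order of lines, and the hybridisation controls, which are added after labelling, by 0.053, 0.37 and 0.12. The part of these measures in the result was not tested.

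**Figure D2:**
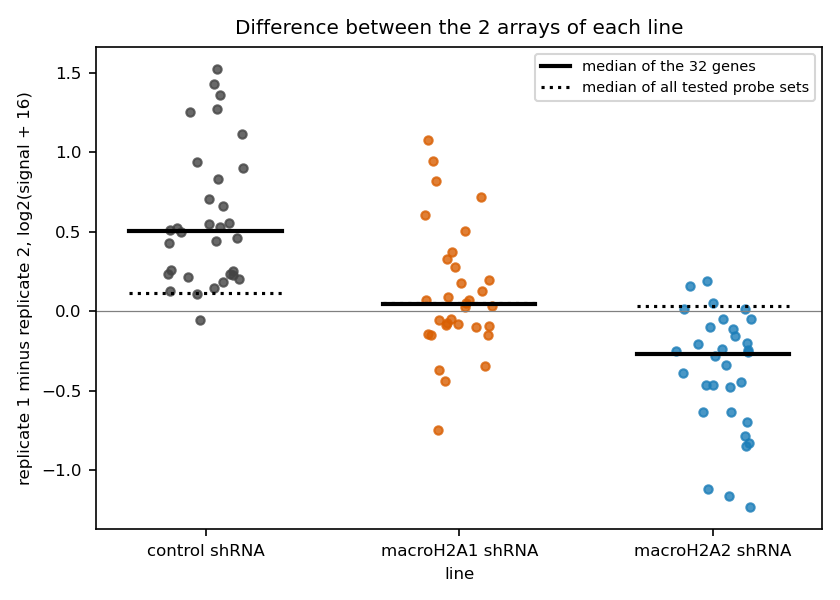
Log2 difference between replicate 1 and replicate 2 within each of the 3 lines, 1 point for each of the 32 genes, beside the median over all tested probe sets. The control line lies above 0 for 31 genes with a median of 0.51, and the macroH2A2 shRNA line has a median of -0.27.

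**Figure D3:**
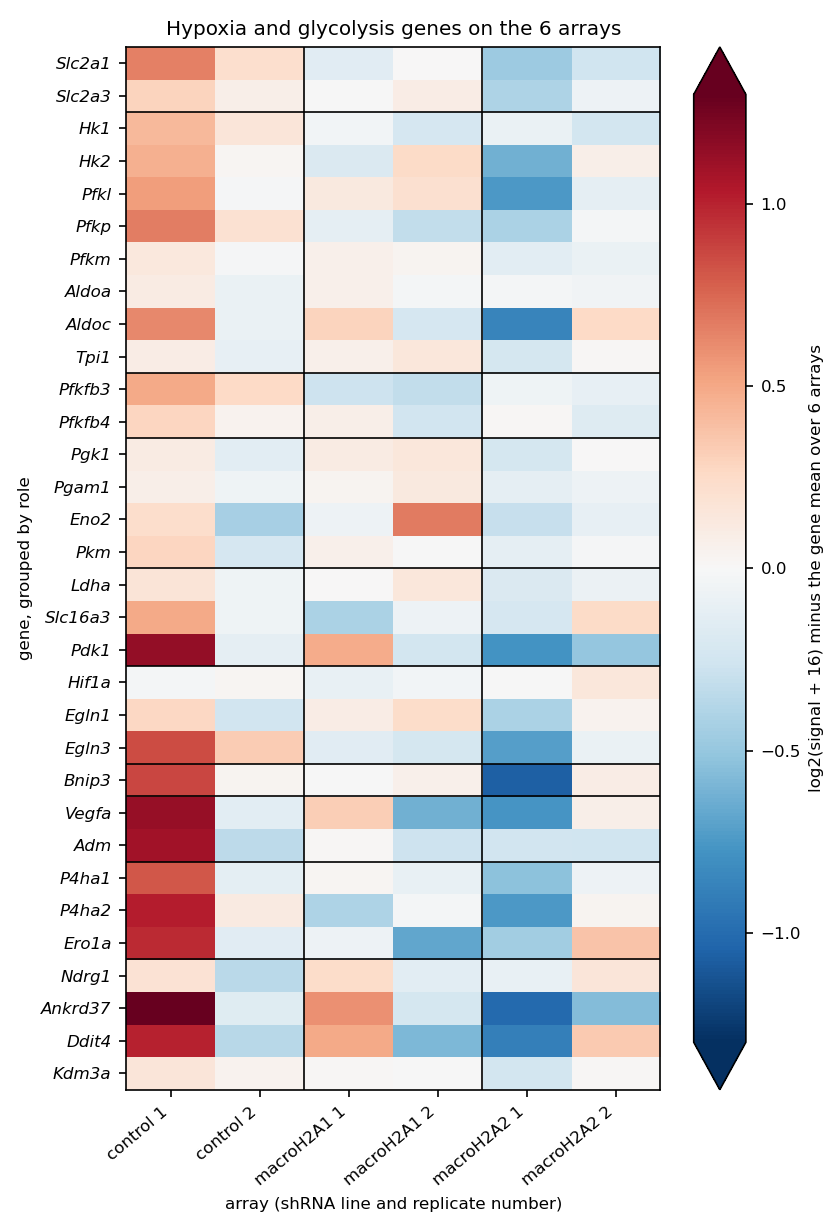
Log2(signal + 16) of each of the 32 genes on each of the 6 arrays, centred on the mean of the gene, with genes grouped by role and colour giving the log2 deviation. Control replicate 1 is the highest array for 26 genes and macroH2A2 shRNA replicate 1 the lowest for 21.

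When both replicates of a line were averaged, no gene of the list passed the test. The limma fit over all tested probe sets called 0 of 27025 in each of the 3 comparisons at a Benjamini-Hochberg adjusted p under 0.05 (0% of all tested probe sets), and 0 of the 32 genes. The smallest limma adjusted p among the genes was 0.880 for Pfkp in the macroH2A1 shRNA line against control, 0.724 for Slc2a1 in the macroH2A2 shRNA line against control, and 1 between the knockdown lines. At an unadjusted limma p under 0.05, 5 genes were lower in the macroH2A1 shRNA line (2.29% of all tested probe sets, 619) and 0 were higher (2.11%, 570). In the macroH2A2 shRNA line 9 were lower (2.52%, 682) and 0 higher (1.45%, 393), and between the knockdown lines 1 was lower in the macroH2A2 shRNA line (1.48%) and 0 higher (1.25%). With the replicate number as a block, limma called 52 probe sets (0.192%), 39 (0.144%) and 1 (0.0037%) in the 3 comparisons, of which 0 were among the 32 genes. At an unadjusted limma p under 0.05 in that blocked fit, 7 genes were lower with macroH2A1 shRNA (4.93% of all tested probe sets) and 0 higher (3.91%), and 14 were lower with macroH2A2 shRNA (5.93%) and 0 higher (3.05%). Between the knockdown lines 3 were lower with macroH2A2 shRNA (3.42%) and 0 higher (2.92%). An exact two-sided permutation test of 2 arrays against 2 cannot give a p below 0.333, so single genes were judged by the limma fit and by whether the arrays overlapped.

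Both arrays of the macroH2A1 shRNA line lay below both control arrays for 9 genes (14.9% of all tested probe sets) and above them for 0 (13%). For the macroH2A2 shRNA line these counts were 15 (16.2%) and 0 (13%). The macroH2A2 shRNA arrays lay below both macroH2A1 shRNA arrays for 14 genes (14.6%) and above them for 2, Pfkfb3 and Hif1a (13.3%). The brighter of the further probe sets of Hif1a went the other way, at 488 and 547 with macroH2A1 shRNA and 467 and 473 with macroH2A2 shRNA. On the other further tested probe sets of these genes the knockdown lines overlapped. The median log2 difference over the 32 genes was -0.24 for the macroH2A1 shRNA line, with 24 genes below 0 (55.6% of all tested probe sets), and -0.45 for the macroH2A2 shRNA line, with 30 below 0 (55.7%). Over all tested probe sets both medians were -0.03. Without control replicate 1 the medians were 0.08 and -0.14 (0.04 and 0.03 over all tested probe sets). Without macroH2A2 shRNA replicate 1 the median of that line was -0.16 (-0.05 over all). Between the knockdown lines the median was -0.20, with 26 genes below 0 (51.1%). It was -0.06 once macroH2A2 shRNA replicate 1 was left out (-0.03 over all). For 10 genes both knockdown lines lay below control in both sets (16% of all tested probe sets): Slc2a1, Hk1, Pfkp, Pfkfb3, Pfkfb4, Pdk1, Egln3, P4ha2, Ankrd37 and Kdm3a.

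Glucose enters the cell through facilitative transporters of the Slc2a family. The signal of Slc2a1, which encodes the broadly expressed transporter GLUT1, was 1432 and 1049 in control, 815 and 907 under macroH2A1 shRNA and 647 and 749.9 under macroH2A2 shRNA. The 3 lines did not overlap, and the order from control to the macroH2A2 shRNA line was the same in both sets. The fitted log2 difference was -0.50 (SE 0.18) with macroH2A1 shRNA and -0.80 with macroH2A2 shRNA (limma unadjusted p 0.0211 and 0.00189), the latter the smallest p of any of the 32 genes in that comparison. The set 2 difference of the macroH2A2 shRNA line alone, which leaves out both arrays that stood apart, was -0.48. Slc2a3, for the high affinity transporter GLUT3, read 345 in control, 279.5 with macroH2A1 shRNA and 208 with macroH2A2 shRNA in set 1, and 296, 301 and 267 in set 2, so the macroH2A2 shRNA arrays were the lowest of the 6 while the macroH2A1 shRNA arrays overlapped control.

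Hexokinases trap glucose in the cell as glucose 6-phosphate. Hk1 read 482 and 400.1 on the control arrays, 348 and 305 on the macroH2A1 shRNA arrays and 336 and 299.9 on the macroH2A2 shRNA arrays. Both knockdown lines lay below control in each set, with log2 differences of -0.41 (SE 0.17) and -0.45, and the knockdown lines overlapped. Hk2, the isoform induced in many tumours, read 1534 and 1133 in control, 975 and 1327 under macroH2A1 shRNA and 717 and 1171 under macroH2A2 shRNA. Its control replicate 1 was the highest array and its macroH2A2 shRNA replicate 1 the lowest, the lines overlapped, and in set 2 the difference from control was 0.23 and 0.05.

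Phosphofructokinase commits the sugar to glycolysis, and its subunits are encoded by separate genes. The signal of Pfkp, the platelet type subunit, was 1759 in control, 1017 with macroH2A1 shRNA and 826 with macroH2A2 shRNA in set 1, and 1273, 884 and 1088 in set 2. All 4 knockdown arrays lay below both control arrays, with log2 differences of -0.65 (SE 0.20) and -0.65 (limma unadjusted p 0.0112 for each), and the knockdown lines overlapped. The brighter further probe set of Pfkp read 108.2 and 65 in control, 56.8 and 59.3 with macroH2A1 shRNA and 78.8 and 84.4 with macroH2A2 shRNA. There the macroH2A2 shRNA arrays overlapped control, and on the dimmer further probe set both knockdown lines did. Pfkl, the liver type subunit, read 355 and 236 on the control arrays, 263 and 278 on the macroH2A1 shRNA arrays and 135 and 218 on the macroH2A2 shRNA arrays. The lowest arrays were those of the macroH2A2 shRNA line, and the macroH2A1 shRNA arrays lay inside the control range. The log2 differences from control of Pfkl were -0.10 (SE 0.26) and -0.70, and its difference between the knockdown lines, -0.61, had the smallest unadjusted limma p of the 32 genes in that comparison, 0.0484. Pfkm, the muscle type subunit, spanned only 0.27 log2 units over the 6 arrays.

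The aldolases and triose phosphate isomerase follow. Tpi1, the isomerase, was among the brightest of the genes and read 6751 and 5864 in control, 6603 and 7006 under macroH2A1 shRNA and 5390.3 and 6394 under macroH2A2 shRNA. The lines overlapped control, and the log2 differences were 0.11 (SE 0.12) and -0.10. Aldoa, the main aldolase of most tissues, spanned 0.19 log2 units over the arrays. Aldoc, the aldolase of brain, spanned 1.48, from 351 on macroH2A2 shRNA replicate 1 to 1009 on control replicate 1, and its macroH2A2 shRNA replicates differed by -1.12.

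The bifunctional enzymes of the Pfkfb family set the level of fructose 2,6-bisphosphate, an activator of phosphofructokinase. Pfkfb3 read 82.4 in control, 42 with macroH2A1 shRNA and 51.4 with macroH2A2 shRNA in set 1, and 67.5, 40 and 49 in set 2. Every control array lay above every knockdown array, and the macroH2A1 shRNA line was the lowest in both sets. Its log2 differences were -0.67 (SE 0.20) and -0.45, its replicates differed by at most 0.24, and this gene kept the same order of lines in sets 1 and 2. Pfkfb4 read 89.4 and 73.5 on the control arrays, 75.6 and 57 on the macroH2A1 shRNA arrays and 72 and 61.1 on the macroH2A2 shRNA arrays, and both knockdown lines lay below control within each set, by -0.25 (SE 0.22) and -0.24 on average. The macroH2A1 shRNA arrays of Pfkfb4 overlapped control by a narrow margin.

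The bright enzymes of lower glycolysis varied little. Pgk1, phosphoglycerate kinase, the first step that yields ATP, read 7447 and 6254 in control, 7401 and 7649 under macroH2A1 shRNA and 5867 and 6921 under macroH2A2 shRNA. The macroH2A2 shRNA arrays lay below the macroH2A1 shRNA arrays, and control spanned part of both, with log2 differences from control of 0.14 (SE 0.12) and -0.10. Pgam1, phosphoglycerate mutase, read 4102 in control, 3998 with macroH2A1 shRNA and 3603 with macroH2A2 shRNA in set 1, and 3754, 4271 and 3722 in set 2. The macroH2A2 shRNA arrays were the lowest of the 6, by a log2 difference of -0.10 (SE 0.10) from control, and the macroH2A1 shRNA line differed by 0.07. Pkm, pyruvate kinase, spanned 0.50 log2 units, with its highest value, 3385, on control replicate 1 and its lowest, 2394, on control replicate 2. Eno2, the neuronal enolase, was dim at 46.3 and 23.4 on the control arrays, 34.7 and 69.1 on the macroH2A1 shRNA arrays and 27.2 and 33.5 on the macroH2A2 shRNA arrays. Its highest array was macroH2A1 shRNA replicate 2, the lines overlapped or nearly touched, and the log2 differences were 0.41 (SE 0.33) and -0.10.

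Lactate dehydrogenase reduces pyruvate to lactate, monocarboxylate transporters export the lactate, and the pyruvate dehydrogenase kinases keep pyruvate from mitochondrial oxidation. Ldha, the lactate dehydrogenase subunit induced by HIF, read 6267 and 5338 in control, 5589 and 6174 under macroH2A1 shRNA and 4891 and 5276 under macroH2A2 shRNA. Both macroH2A2 shRNA arrays were lowest, by -0.19 (SE 0.12) against control, and the macroH2A1 shRNA line differed by 0.02. Slc16a3, the lactate exporter MCT4, was dim at 43.4 in control, 15.7 with macroH2A1 shRNA and 20.3 with macroH2A2 shRNA in set 1, and 24.5, 24.3 and 34 in set 2, with log2 differences of -0.46 (SE 0.30) and -0.20. Pdk1, the HIF-induced pyruvate dehydrogenase kinase, read 1947 and 808 on the control arrays, 1228 and 740.4 on the macroH2A1 shRNA arrays and 504 and 614 on the macroH2A2 shRNA arrays. The macroH2A2 shRNA arrays lay below the 4 others, and control replicate 1 was the highest array, 1.25 log2 units above control replicate 2. The log2 difference of Pdk1 was -1.15 (SE 0.39) in the macroH2A2 shRNA line (limma unadjusted p 0.0183), -1.92 in set 1 and -0.39 in set 2, and -0.39 in the macroH2A1 shRNA line.

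**Figure D4:**
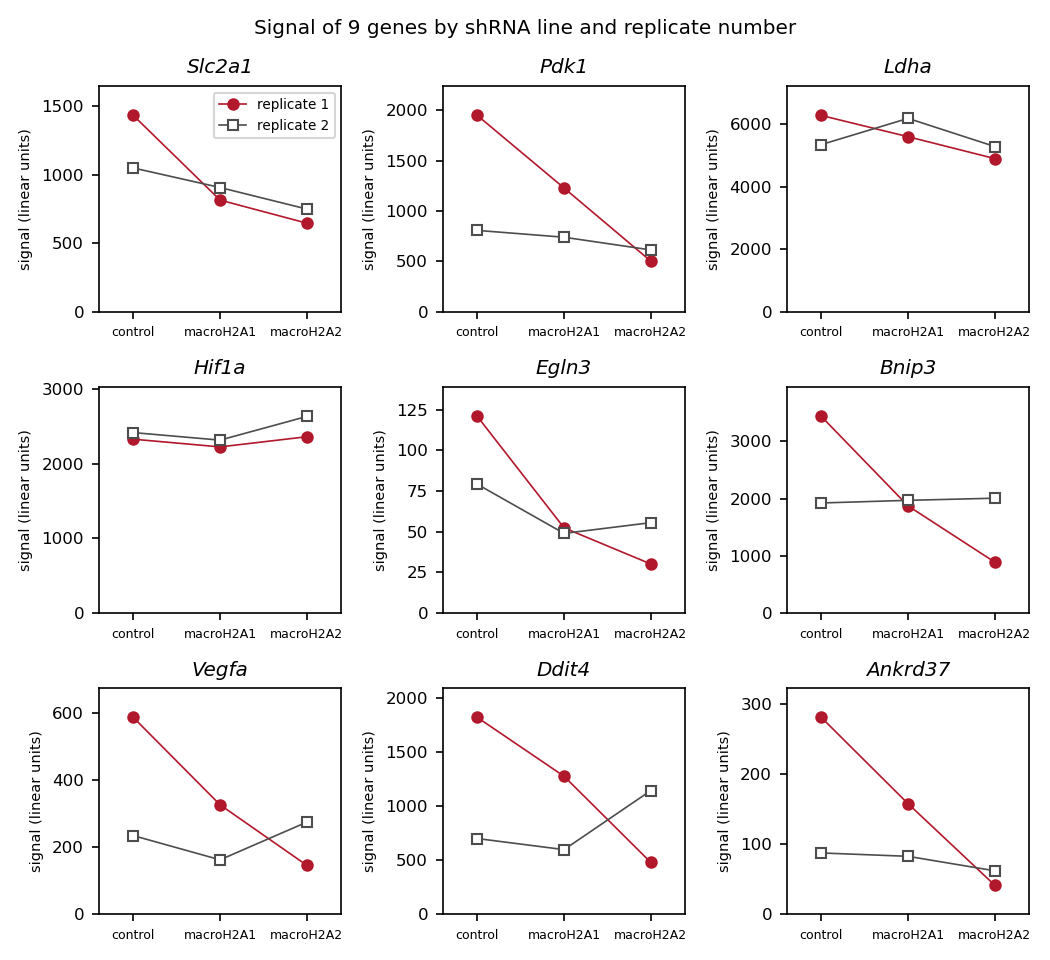
Linear signal of 9 of the genes on the 6 arrays by shRNA line, each panel on its own axis from 0. The points of replicate 1 are joined by one line across the shRNA lines, and those of replicate 2 by another. Slc2a1 and Egln3 separate control from the knockdown lines in both replicates. In Vegfa and Ddit4 the macroH2A2 shRNA point lies below control in replicate 1 and above it in replicate 2.

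Among the oxygen sensing genes the transcript of the transcription factor itself varied little. Hif1a, the oxygen-regulated subunit of HIF-1, read 2329.8 and 2418 in control, 2227 and 2317 under macroH2A1 shRNA and 2363 and 2635 under macroH2A2 shRNA. Its 6 arrays spanned 0.24 log2 units, the differences from control were -0.06 (SE 0.11) and 0.07, and it was the only gene of the list below 0 when control replicate 1 was set against replicate 2. HIF is controlled mainly through the stability of its protein, which these arrays do not measure. Egln3, an oxygen-sensing prolyl hydroxylase (PHD3) that is also a HIF target, read 121 in control, 52.3 with macroH2A1 shRNA and 30.1 with macroH2A2 shRNA in set 1, and 79.1, 48.9 and 55.5 in set 2. All 4 knockdown arrays lay below both control arrays, and the log2 differences were -0.78 (SE 0.28) and -0.99 (limma unadjusted p 0.0254 and 0.00816). Egln1, the main prolyl hydroxylase (PHD2), read 809 and 562 on the control arrays, 714 and 794 on the macroH2A1 shRNA arrays and 499 and 692 on the macroH2A2 shRNA arrays. Its macroH2A2 shRNA arrays lay below its macroH2A1 shRNA arrays, control overlapped both, and the log2 differences were 0.16 (SE 0.22) and -0.19. On the further probe set of Egln1 the knockdown lines overlapped, at 136 and 151 with macroH2A1 shRNA and 154 and 142 with macroH2A2 shRNA. Their log2 differences from control there were -0.39 and -0.35.

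Several genes outside glycolysis spread widely between replicates. Bnip3, a mitochondrial protein that marks mitochondria for removal, read 3436 and 1923 in control, 1871 and 1969 under macroH2A1 shRNA and 888 and 2006 under macroH2A2 shRNA. Control replicate 1 and macroH2A2 shRNA replicate 1 stood at the top and the bottom, and the 4 other arrays lay between 1871 and 2006. The log2 difference of Bnip3 in the macroH2A2 shRNA line was -1.93 in set 1 and 0.06 in set 2, and in the macroH2A1 shRNA line -0.87 and 0.03. Vegfa, the growth factor for blood vessels, read 587 in control, 326 with macroH2A1 shRNA and 145 with macroH2A2 shRNA in set 1, and 234, 162 and 274 in set 2. The lines overlapped, the macroH2A2 shRNA line differed from control by -1.90 in set 1 and 0.22 in set 2, and the average differences were -0.66 (SE 0.48) and -0.84. Adm, the vasodilator peptide adrenomedullin, read 106.8 on control replicate 1 and between 29.6 and 42.0 on the 5 other arrays. A further probe set of Adm, of similar brightness, read 89 and 42.9 in control, 29.7 and 20.2 under macroH2A1 shRNA and 22.6 and 32.8 under macroH2A2 shRNA, so there all 4 knockdown arrays lay below both control arrays.

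The collagen prolyl hydroxylases and the oxidase Ero1a modify proteins in the endoplasmic reticulum. P4ha2 read 458 and 238 on the control arrays, 161 and 213 on the macroH2A1 shRNA arrays and 123 and 224 on the macroH2A2 shRNA arrays. All knockdown arrays lay below both control arrays, although by a small margin in set 2, where the differences were -0.15 and -0.08 against -1.42 and -1.77 in set 1. P4ha1 read 643 and 328 in control, 367 and 335 under macroH2A1 shRNA and 244 and 345 under macroH2A2 shRNA, and its lines overlapped, with log2 differences of -0.38 (SE 0.30) and -0.64. Ero1a, which passes oxidising equivalents to protein disulfide isomerase, read 2701 in control, 1307 with macroH2A1 shRNA and 999 with macroH2A2 shRNA in set 1, and 1238, 852 and 1784 in set 2. On this probe set the macroH2A2 shRNA line differed from control by -1.42 in set 1 and 0.52 in set 2. The 2 further probe sets of Ero1a did not share 1 direction in set 2: the almost equally bright one read 2314.5 and 1179.9 in control and 622 and 1134.5 with macroH2A2 shRNA, a difference of -1.87 in set 1 and -0.06 in set 2, and the other differed by 0.57 in set 2.

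Among the remaining hypoxia-induced genes, Ankrd37, an ankyrin repeat protein used as a HIF readout, had the widest spread of the list, 2.38 log2 units. It read 281 and 87.1 on the control arrays, 158 and 82.3 on the macroH2A1 shRNA arrays and 41 and 61.6 on the macroH2A2 shRNA arrays. The macroH2A2 shRNA arrays were the lowest of the 6, and the log2 difference from control was -1.39 (SE 0.48) (limma unadjusted p 0.0205), -2.38 in set 1 and -0.41 in set 2. Kdm3a, a histone H3 lysine 9 demethylase, read 1365 and 1263 in control, 1237 and 1216 under macroH2A1 shRNA and 1029.9 and 1233 under macroH2A2 shRNA. Both control arrays lay above the 4 knockdown arrays, by small log2 differences of -0.10 (SE 0.13) and -0.22. Ddit4, an inhibitor of mTORC1 signalling, read 1820.0 in control, 1275 with macroH2A1 shRNA and 477 with macroH2A2 shRNA in set 1, and 698, 596 and 1142 in set 2. Replicate 1 was above replicate 2 in the control and macroH2A1 shRNA lines by 1.36 and 1.08, and below it in the macroH2A2 shRNA line by a log2 difference of -1.23. Ndrg1, a stress response gene, lay between 640 and 967 with no separation of the lines.

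The spread was smaller among the brightest genes. The 8 genes with a mean signal of at least 2000 had a median range over the 6 arrays of 0.37 log2 units. The 1090 tested probe sets as bright had 0.34, and the 24 other genes had 1.12 against 0.57 for the dimmer probe sets. Signal did not order the spread throughout: Bnip3, 1 of the 8, spanned 1.93. Of the 24, Pdk1 at a mean signal of 974 spanned 1.92 and Pfkm at 190 spanned 0.27. Most of the 8 are glycolytic enzymes, so signal and role cannot be told apart here. The probe sets of Aldoa, Tpi1, Pgk1, Pgam1, Ldha and Pkm may also read transcripts from near-identical processed copies of these genes elsewhere in the genome, so their values are less certain as values of 1 gene. Where a gene had further probe sets, these were read as well. In 19 genes 34 further probe sets passed the filter. Of these 33 were higher on control replicate 1 than on replicate 2 (62.7% of all tested probe sets). The order of control, macroH2A1 shRNA and macroH2A2 shRNA in set 1 held for 24 (26.6%). The further probe set of Vegfa, at 44.7 and 37.8, 55.5 and 29.8, and 25.9 and 56.2 in the order of lines above, was 1 that did not have that order. Of the 10 genes with both knockdown lines below control in both sets, 6 had further probe sets: those of Slc2a1, Hk1 and Egln3 were also below control in both sets, and those of Pfkp, the one of Pfkfb3 and 1 of the 3 of Pdk1 were not.

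**Figure D5:**
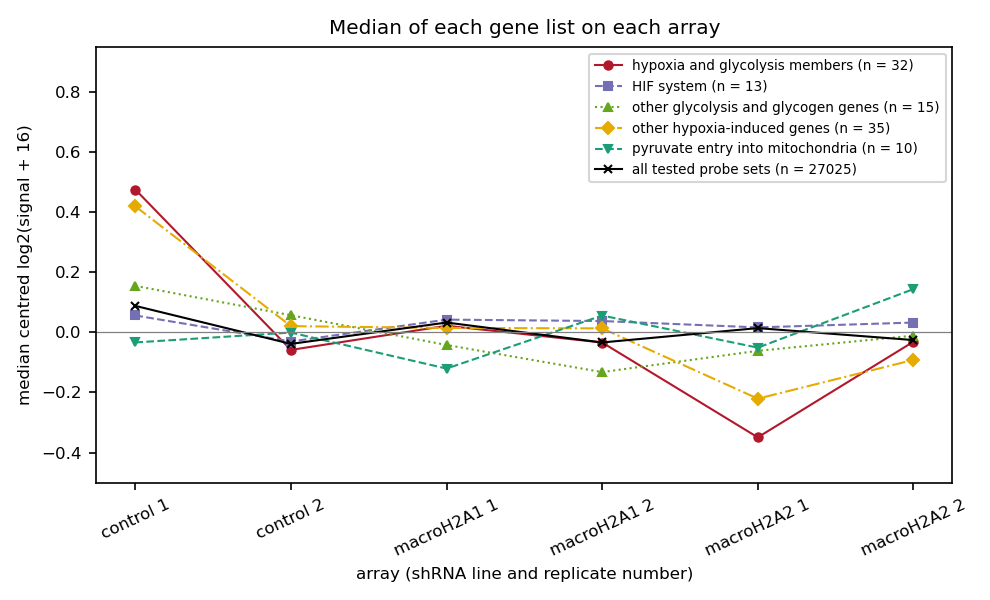
Median over genes of log2(signal + 16), centred on each gene's mean, on each of the 6 arrays for the 32 genes, for 4 further gene lists and for all tested probe sets, in log2 units. The 32 genes and the other hypoxia-induced genes are highest on control replicate 1, at 0.48 and 0.42. The HIF system list is at 0.06 on that array and the pyruvate entry list at -0.03.

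Genes of neighbouring pathways, taken from lists of 95 further genes, were read in the same way. In none of these lists did a gene pass the limma test. The other hypoxia-induced genes, 35 tested of 44 listed, had median log2 differences of -0.24 and -0.36 from control and a control replicate difference of 0.31. Of the 35, 29 were higher on control replicate 1 than on replicate 2 (62.7% of all tested probe sets). The order described for set 1 held for 21 of the 35 (26.6%). Fam162a, a mitochondrial protein induced by hypoxia, read 3589.6 and 2398 on the control arrays, 2636 and 3019 on the macroH2A1 shRNA arrays and 898 and 1535 on the macroH2A2 shRNA arrays. Both of its macroH2A2 shRNA arrays lay below the 4 others, with a log2 difference of -1.31 (SE 0.27) from control and a limma adjusted p of 0.724. Hmox1, heme oxygenase 1, read 779 and 656 in control, 419 and 306 under macroH2A1 shRNA and 282 and 466 under macroH2A2 shRNA, with the 4 knockdown arrays below both control arrays and log2 differences of -0.97 and -0.95 (SE 0.25).

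The other glycolysis and glycogen genes, 15 tested of 23, had median differences of -0.16 and -0.05. The set 1 order held for 5 of them (26.6% of all tested probe sets). Gbe1, the glycogen branching enzyme, which stands in both of these lists, read 306 in control, 135 with macroH2A1 shRNA and 163 with macroH2A2 shRNA in set 1, and 208, 151 and 187 in set 2, and all 4 knockdown arrays lay below both control arrays. The HIF system, 13 tested of 16, had medians of 0.03 and -0.006 and a control replicate difference of 0.02. It had 5 genes in the set 1 order (26.6%). It includes Arnt, the partner subunit of HIF-1 alpha, and Vhl, which targets HIF for destruction, with log2 differences from control of -0.15 and -0.12 (SE 0.21) and of -0.09 and -0.27 (SE 0.19). The genes for pyruvate entry into mitochondria, 10 tested of 13, had medians of -0.03 and 0.08 and a control replicate difference of -0.12. The set 1 order held for 2 of them (26.6%). Pdha1, the catalytic subunit of pyruvate dehydrogenase, read 484 and 604 on the control arrays, 749 and 821 on the macroH2A1 shRNA arrays and 677 and 862 on the macroH2A2 shRNA arrays. Its 4 knockdown arrays lay above both control arrays, by log2 differences of 0.52 and 0.49 (SE 0.17), which did not pass the limma test.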

How the data were processed

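Expression was measured on 6 one-colour Affymetrix arrays. The deposited values are linear signal intensities for each probe set, which the authors computed with MAS5 according to the submitters' processing notes. The MAS5 version is not given there. The 2% trimmed mean of 150 on every array shows that the authors had scaled the deposited intensities. Of 45101 probe sets, 64 controls were left out of the tests, 34945 had 1 symbol, 932 several and 9160 none. Probe sets with a mean signal at or above the 40th percentile (10.4) were kept, 27025 in all. Values were tested as log2(signal + 16) with limma 3.58.1 in R 4.3.3 (lmFit, eBayes with trend, Benjamini-Hochberg adjustment over all tested probe sets), with no replicate term and 3 residual degrees of freedom.

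The labels share replicate numbers between the lines and do not say that a number marks a batch. The differences between replicates 1 and 2 correlated between lines with r from 0.372 to 0.576 over all tested probe sets, so the number was treated as a possible batch: values within each number are given, and a fit with it as a block was an alternative. P-values set the difference between lines against the spread of arrays within lines, pooled over the lines. With 1 line for each target they do not cover differences between lines made against the same target. On data simulated for the macroH2A1 shRNA comparison, with 27025 probe sets, the fit recovered 70% of the probe sets given a log2 change of 1 and 100% of those given 2. The simulated noise depended on signal only, was independent between arrays and held no replicate effect. These shares therefore do not give the power on the real arrays. There Macroh2a1, at a log2 difference of -1.67, had a limma adjusted p of 0.123 in the fit without the block. The members and gene lists were chosen with earlier results of these data known. Values on every array are given, per role, for the brightest gene and the gene with the smallest p in each comparison, and for further genes chosen after their values were seen. Other pseudocounts, filters, scalings, probe set rules and the removal of each array were tried. Promoter sequences are from RefSeq.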

Additional observations from a re-analysis of the deposited data

Results flagged for a closer look

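For 10 of the 32 genes both knockdown lines lay below control in replicate set 1 and above it in replicate set 2, which held for 12.8% of all tested probe sets. The values below are the mean log2 difference of both knockdown lines from control, in set 1 and then in set 2, and the set 2 value minus the set 1 value. With 1 array of each line in a set, the difference between the sets was not tested.

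Bnip3 had the widest gap, from -1.40 to 0.05, a difference of 1.45. Adm went from -1.21 to 0.07, a difference of 1.28, and P4ha1 from -1.06 to 0.05, a difference of 1.11. Eno2, which is dim, went from -0.41 to 0.72, a difference of 1.13. Hk2 differed by 0.999 between the sets (-0.86 and 0.14) and Egln1 by 0.82 (-0.43 and 0.39). The other 4 are bright glycolytic genes with smaller values: Pkm differed by 0.51 (-0.31 and 0.20), Pgk1 by 0.39 (-0.18 and 0.22), Tpi1 by 0.37 (-0.18 and 0.19) and Aldoa by 0.13 (-0.08 and 0.05).

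These values are of the brightest probe set of each gene, and further probe sets passed the filter for 6 of the 10. They had both knockdown lines below control in set 1 and above it in set 2 for Egln1 and P4ha1 (1 further probe set each), for 2 of 4 of Aldoa and for 1 of 2 of Tpi1. For Pgk1 0 of 2 did. The further probe set of Adm did not either: its knockdown lines lay below control in both sets, by -1.20 and -1.44 in set 1 and by -0.70 and -0.27 in set 2.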

How the results depend on the processing

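The replicate block changed the counts over all tested probe sets most: with it 52 probe sets passed for the macroH2A1 shRNA line against control, 39 for the macroH2A2 shRNA line against control and 1 between the knockdown lines, against 0 each without it, and none of these was among the 32 genes. The smallest limma adjusted p of a gene of the list with the replicate block was 0.106 (Slc2a1, macroH2A2 shRNA against control), and this was the smallest over all settings run. Leaving out 1 array at a time, the median log2 difference of the genes ranged from -0.48 to 0.0795 for the macroH2A1 shRNA line, turning above 0 without control replicate 1. It ranged from -0.58 to -0.14 for the macroH2A2 shRNA line, and was -0.14 without control replicate 1 and -0.16 without macroH2A2 shRNA replicate 1. The cause was not tested. Of 1437 values of single genes recomputed, 80 changed sign and 0 of them beyond the standard errors of both values. Quantile normalization changed the sign of 9 of 96 values. Among them were macroH2A1 shRNA differences from control of bright glycolytic genes: Tpi1 went from 0.11 to -0.11, Pgk1 from 0.14 to -0.09 and Aldoa from 0.01 to -0.20. The direction of these small differences thus depended on the scaling. With arrays centred on their median, chosen after seeing the data, the order of the lines in set 1 held for 22 genes (16.5% of all tested probe sets) in place of 28 (26.6%). Control replicate 1 then exceeded replicate 2 for 28 genes (44.1%) in place of 31 (62.7%), by a median of 0.33 (all tested probe sets -0.06) in place of 0.51 (0.11). The 60th percentile filter left 31 of the 32 genes. Dim genes such as Eno2, Slc16a3 and Adm have the least signal over background.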
